A study of Danio rerio x Danio aesculapii and Danio rerio x Danio albolineatus and Danio rerio x Danio kyathit with 48 samples.

Results

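In adult hybrids of zebrafish and its relatives, 40 genes had reads assigned to both parental alleles in 3 hybrids and almost none assigned to the paternal allele in the fourth. Each hybrid had a D. rerio (zebrafish) mother and is named here by its father, which was D. kyathit, D. aesculapii, D. nigrofasciatus or D. albolineatus. Skin cells were sorted on membrane-bound fluorescent reporters that mark 1 pigment cell type each. Xanthophores were sorted with aox5:mem-EGFP, iridophores with pnp4a:mem-mCherry and melanophores with tyrp1b:mem-mCherry, so that each sorted library rests on the cells in which that promoter drives its reporter. Whole skin that was not enriched served as the control. With 3 replicate libraries (numbers 3, 4 and 5) for each of 4 kinds of library in each of 4 hybrids, there were 16 groups and 48 libraries. All fish were adult, and the sources used here give neither their exact age nor how many of them a library held.

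The genes were chosen by their skin values. For each hybrid, the 3 unenriched libraries were summed per allele. A gene was eligible if the sum of both alleles was at least 300 in all 4 hybrids. It was a member if the paternal share was under 3% in exactly 1 hybrid and between 30 and 70% in the other 3. Mitochondrially encoded genes were left out. Of 19629 genes in the tables, 6058 were eligible and 40 were members. The hybrid with the low share is called the gene's own hybrid. It was kyathit for 15 genes, aesculapii for 13, albolineatus for 6 and nigrofasciatus for 6. Since the skin allele values chose the genes, they are given below as a description, with no test. The sorted libraries were not used in the choice, and the tests below are made in them. They hold skin cells of the same hybrids under the same replicate numbers, so they are not independent of the choice.

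An F1 hybrid holds a genome from each parent in every nucleus, so both alleles of a gene meet the same transcription factors and the same tissue. Differences between the alleles of such a hybrid are commonly read as effects of sequence near each allele, because factors that diffuse through the cell act on both. Reads can be assigned to an allele only where they cover a base at which the parental sequences differ. The sources used here do not say how reads were assigned, and the part of that step in the values below was not tested.

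The values are allele read counts that the authors scaled by a size factor and rounded, and are called normalised values. They do not hold the original read number. An effective number of independent molecules per library was therefore estimated from the spread of the allele ratio among replicates. It ran from 25585 to 1165794. Its median was 462777 for unenriched skin, and for sorted cells 163250 with the iridophore, 72940.5 with the melanophore and 69529 with the xanthophore reporter. By median, each sorted kind held the highest summed level of its own marker list. Keratinocyte markers were present in all of them, with a median summed value of 69595 in xanthophore-enriched cells against 110829 in unenriched skin. Leukocyte markers had medians of 8581 in iridophore-enriched, 45679 in melanophore-enriched and 27327 in xanthophore-enriched cells, against 27673 in unenriched skin. For fibroblast markers the medians were 14309, 70039 and 77314 in that order, against 215575. The labels do not say whether the replicates came from separate fish, so p-values measure only the spread between these samples.

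The near absence of the paternal allele was mostly an absence from the tables. Over the 12 libraries of the own hybrid, sorted ones included, 22 genes were listed at 0 for the paternal allele in every library. A further 8 genes had a paternal value of at most 8 in sum over the 12 libraries, and 10 genes had more. This division was made after the values had been seen. Of the 480 paternal values in own-hybrid libraries, 386 were 0, against 23 of 1440 in the other hybrids. The skin libraries among them had chosen the genes, so part of this contrast was set in advance. Zeros were counted neither for the sorted libraries alone nor over all eligible genes.

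The classes were spread unevenly over the hybrids. Of the 22 genes listed at 0, 10 belonged to kyathit, 9 to aesculapii, 3 to albolineatus and none to nigrofasciatus. In nigrofasciatus, 4 of 6 genes had a paternal value above 8 in sum. Among genes whose other 3 hybrids lay within 30 to 70%, a low share in the remaining hybrid was under 0.5% in 31 cases and from 0.5 to 3% in 9. There were 26 such genes from 3 to 6%, 29 from 6 to 10%, 257 from 10 to 20% and 702 from 20 to 30%.

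The members nearest the threshold were wdfy1 in nigrofasciatus at 2.81%, tspan35 in kyathit at 2.81% and si:ch1073-440b2.1 in aesculapii at 2.91%. The nearest genes outside were rps27l in nigrofasciatus at 3.37%, nrbf2b in albolineatus at 3.64% and mpeg1.1 in albolineatus at 3.74%. Without any condition on the other hybrids, 54 eligible genes were under 3% in aesculapii, 46 in kyathit, 37 in nigrofasciatus and 30 in albolineatus. Of the genes under 3% anywhere, 112 were so in exactly 1 hybrid, 21 in 2, 3 in 3 and 1 in all 4. The mirrored rule, with the D. rerio allele nearly absent in exactly 1 hybrid, found 0 genes. A D. rerio share under 3% was seen in 0 eligible genes of aesculapii, 1 of albolineatus, 2 of kyathit and 3 of nigrofasciatus.

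**Figure D1:**
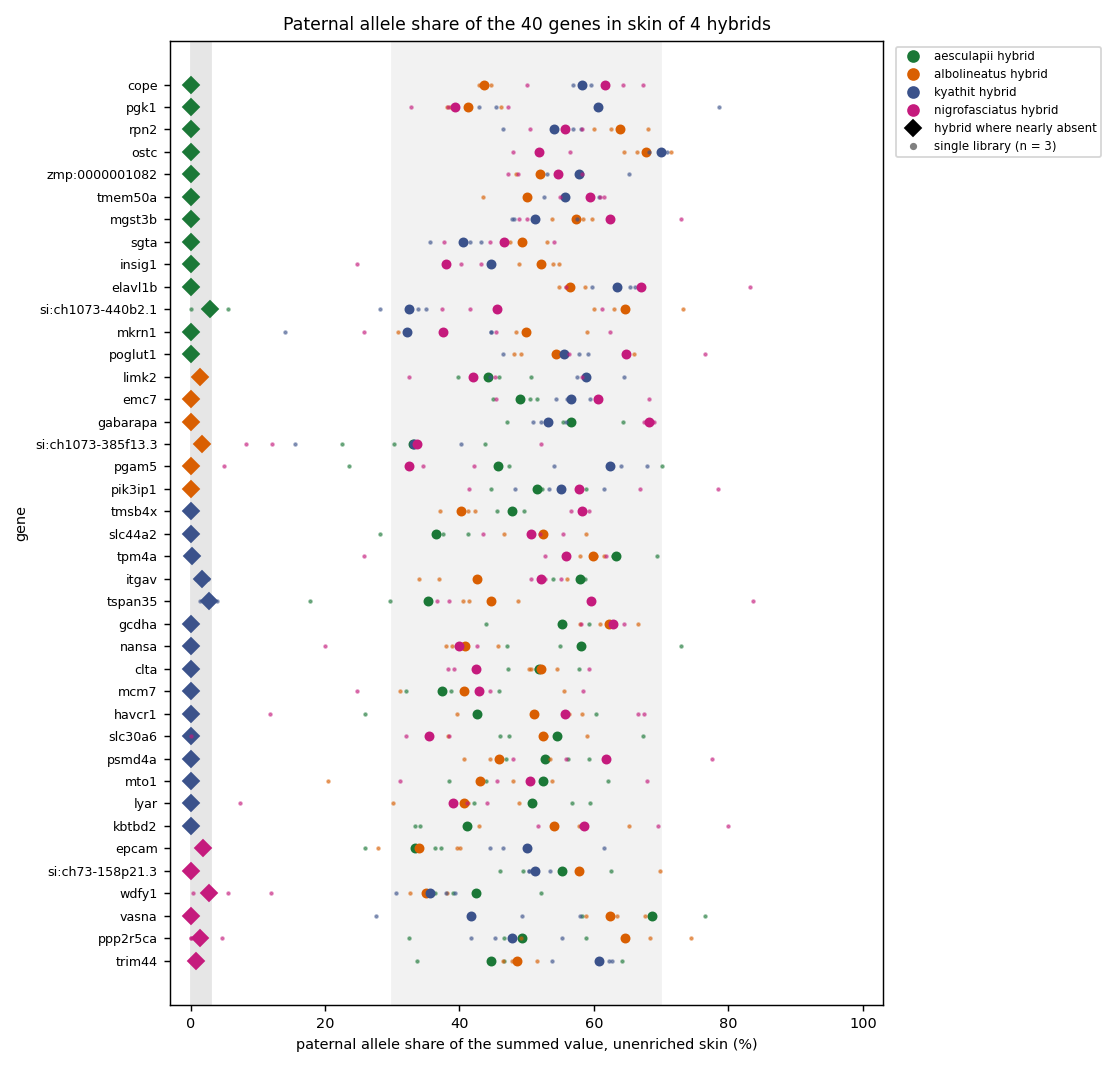
Paternal share of the summed allele value (horizontal axis, percent) of the 40 genes in unenriched skin, by hybrid. Large symbols are the 3 libraries of a hybrid summed, with a diamond for the hybrid where the share is under 3%, and small dots are single libraries; grey bands mark 0 to 3% and 30 to 70%, the values that chose the genes.

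The 40 genes are described next by the known role of their products, which for most is taken from the mammalian or yeast protein of the same name. The grouping was made after the genes were known and carries no test.

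The first group acts on actin, adhesion and the cell surface. The gene tmsb4x, for thymosin beta 4, which holds actin monomers, was listed at 0 for the paternal allele in all 12 kyathit libraries. Its paternal share in the skin of the other hybrids ran from 40.2 to 58.2%. In kyathit skin the D. rerio values of tmsb4x were 7042, 7057 and 12417, whereas in the 9 skin libraries of the other hybrids they had a lowest value of 2019, a median of 2809 and a highest of 3837. All 3 kyathit libraries lay above all others. The paternal values of tmsb4x in the other hybrids' skin ran from 1670 through a median of 2632 to 4429. Summed over both alleles, tmsb4x had 7042, 7057 and 12417 in kyathit skin and a range of 4055 to 7469 (median 4651) elsewhere, and these ranges overlapped.

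**Figure D2:**
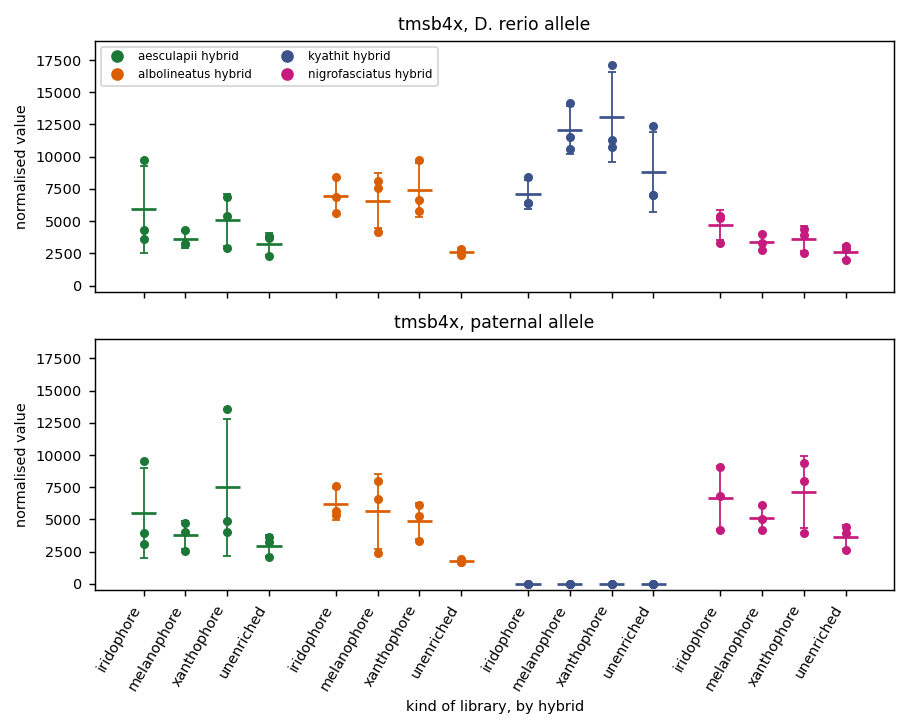
Normalised value of tmsb4x (vertical axis) for the D. rerio allele and for the paternal allele in every library, by kind of library and hybrid. Each point is 1 library; the paternal values of all 12 kyathit libraries sit at 0, and the D. rerio values of kyathit sit above those of the other hybrids in skin.

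Of the other actin genes, tpm4a, an actin-binding tropomyosin gene, had a kyathit skin share of 0.167%, with 1792 for the D. rerio and 3 for the paternal allele over 3 libraries. The kinase gene limk2, whose product phosphorylates cofilin, had a share of 1.42% in albolineatus skin. Its D. rerio values there were 555, 611 and 777 and its paternal values 6, 10 and 12. In the other hybrids' skin the D. rerio values of limk2 ran from 125 through a median of 331 to 1019, and the paternal ones from 128 through 261 to 1379. The paternal values of albolineatus thus lay below all others, while its D. rerio values lay within the range of the others.

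The most abundant member was epcam, which encodes an adhesion protein of epithelial cells and is a keratinocyte marker. In nigrofasciatus skin its D. rerio values were 6934, 8447 and 13490 and its paternal values 122, 162 and 272, a share of 1.89%. In the other hybrids' skin the D. rerio values of epcam ran from 4979 through a median of 10100 to 14986, and the paternal ones from 3332 through 4639 to 13199. The paternal allele of epcam was thus present in all 3 nigrofasciatus skin libraries, at a low level. Its D. rerio values were within the range of the other hybrids.

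Further surface genes were itgav, an integrin alpha subunit gene, at 1.76% in kyathit skin, and tspan35, a tetraspanin gene, at 2.81%. The receptor gene havcr1 was listed at 0 in all kyathit libraries, and vasna, a vasorin gene whose mammalian product binds TGF-beta, was at 0 in nigrofasciatus skin and had at most 2 in any of its libraries.

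The second group serves the secretory pathway. The gene cope encodes a subunit of the COPI vesicle coat, and had paternal values of 0, 0 and 1 in aesculapii skin, a share of 0.0224%. Its D. rerio values there were 1063, 1477 and 1932, against 428, 565 and 697 as the lowest, median and highest in the other hybrids' skin, so the groups did not overlap. The paternal values of cope in the other hybrids' skin ran from 412 through 665 to 1145. Summed over both alleles, cope had 1063, 1477 and 1933 in aesculapii skin against 947 to 1779 elsewhere (median 1222), with overlap.

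The genes rpn2 and ostc encode parts of the oligosaccharyltransferase, which attaches sugar chains to new proteins in the endoplasmic reticulum, and both had aesculapii as the own hybrid. In aesculapii skin rpn2 had D. rerio values of 705, 844 and 1106, all above the 235 to 506 (median 451) of the other hybrids, whose paternal values ran from 239 through 599 to 957. The D. rerio values of ostc in aesculapii skin were 506, 815 and 836, against 215 to 647 (median 286), so 1 aesculapii library lay within the range of the others, and paternal values there ran from 279 through 612 to 1510. In aesculapii skin the paternal value of both genes was 0 in each library.

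The gene emc7, for a subunit of the complex that inserts membrane proteins, was at 0 for the paternal allele in all 12 albolineatus libraries. Albolineatus skin held D. rerio values of 309, 396 and 437, above the 196 to 287 (median 255) of the other hybrids, whose paternal values ran from 207 through 271 to 611. The gene tmem50a, which encodes a small membrane protein, was at 0 in aesculapii. Its D. rerio values in aesculapii skin were 439, 613 and 766, against 241 to 449 (median 337) elsewhere, where the paternal values ran from 247 through 418 to 633. The lowest aesculapii library of tmem50a lay within the range of the other hybrids.

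Other genes of this group were insig1, whose product holds the sterol sensor in the endoplasmic reticulum, and poglut1, for an enzyme that adds glucose to Notch, both listed at 0 in all aesculapii libraries. The clathrin light chain gene clta was listed at 0 in all kyathit libraries. Over the 3 skin libraries of the own hybrid, the D. rerio value was 1361 for insig1, 429 for poglut1 and 1148 for clta. The other 3 hybrids ran from 687 to 777 for insig1, from 188 to 212 for poglut1 and from 504 to 657 for clta.

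The third group holds metabolic and transport genes. The gene pgk1, for a glycolytic kinase, was at 0 for the paternal allele in all 12 aesculapii libraries. Aesculapii skin held D. rerio values of 761, 942 and 1529, against 535 to 814 (median 721) elsewhere, where the paternal values ran from 338 through 542 to 1964. The lowest aesculapii value of pgk1 lay within the range of the other hybrids. The choline transporter-like gene slc44a2 had a share of 0.0308% in kyathit skin, with paternal values of 0, 0 and 1. Its D. rerio values in kyathit skin were 635, 1226 and 1389, against 392 to 967 (median 734) elsewhere, where the paternal values ran from 236 through 713 to 1088. These D. rerio ranges overlapped.

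Also in kyathit were gcdha (glutaryl-CoA dehydrogenase, lysine breakdown), slc30a6 (a zinc transporter gene) and mto1 (mitochondrial tRNA modification), all listed at 0 in the 12 libraries, and nansa (sialic acid synthesis) at 0.0572% in skin. The summed skin value of nansa in kyathit was 1747, or 2.11 times the median of the other hybrids. This ratio was the highest of all members, followed by havcr1 at 1.86 times. By library, the sum of nansa was 349, 474 and 924 in kyathit skin against 20 to 552 elsewhere, so the ranges overlapped. In the sorted libraries the summed difference of nansa was 0.35 ± 0.26 on the log2 scale (limma, adjusted p = 0.442). The microsomal glutathione transferase gene mgst3b was at 0.113% in aesculapii skin, and pgam5, for a mitochondrial phosphatase, was listed at 0 in albolineatus.

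The fourth group acts in protein turnover and signalling. Those listed at 0 in all libraries of the own hybrid were psmd4a (a ubiquitin receptor of the proteasome) and kbtbd2 (a substrate adaptor of a ubiquitin ligase) in kyathit, sgta (a co-chaperone) and mkrn1 (a ubiquitin ligase) in aesculapii, and pik3ip1 (an inhibitor of PI3-kinase) in albolineatus. The autophagy gene gabarapa had a value of 1 in a single albolineatus library and 0 in the other 11. In nigrofasciatus skin, ppp2r5ca, for a regulatory subunit of a protein phosphatase, was at 1.43% and trim44 at 0.877%.

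The remaining genes were mcm7 (a subunit of the replicative helicase) and lyar (a nucleolar protein) in kyathit and elavl1b (an RNA-binding protein) in aesculapii, all listed at 0 in the own hybrid, wdfy1 in nigrofasciatus, and 4 genes with clone-based symbols. Of these 4, zmp:0000001082 was at 0 for the paternal allele in all aesculapii libraries, with D. rerio values of 97, 439 and 441 in skin. In the other hybrids' skin the D. rerio values of zmp:0000001082 ran from 229 through 341 to 1053 and the paternal ones from 234 through 454 to 1470. Summed over the aesculapii skin libraries, its D. rerio value was 977, against a median of 1254 for the other hybrids. The values of 439 and 441 lay above the library median of 341, and that of 97 below it. In the sorted libraries the D. rerio allele of zmp:0000001082 was higher in aesculapii, as given below. The gene si:ch73-158p21.3 had paternal values of 0, 0 and 1 and D. rerio values of 177, 322 and 455 in nigrofasciatus skin. Elsewhere its D. rerio values ran from 93 through 173 to 337 and its paternal values from 91 through 232 to 357, so the D. rerio ranges overlapped. The other clone-based genes were si:ch1073-440b2.1 in aesculapii and si:ch1073-385f13.3 in albolineatus, the latter with a skin share of 1.72%.

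Across all 40 genes, the skin D. rerio value of the own hybrid was a median of 1.78 times the median of the other 3 hybrids, from 0.454 for wdfy1 to 3.83 for havcr1. The value summed over both alleles was a median of 0.908 times, from 0.287 for wdfy1 to 2.107 for nansa. Over all eligible genes, each hybrid set against the other 3, both medians were 1.0. The D. rerio value was above that of all 3 other hybrids in 32 of 40 genes. By library, all 3 own-hybrid skin libraries lay above all 9 others for the D. rerio allele in 14 genes, and for the sum in 0, while they lay below all others for the sum in 4. These are descriptions, since skin values chose the genes. The same counts over all eligible genes were not made, so the share expected without the choice is not known. The minimum of 300 had to be met by the D. rerio allele almost alone in the own hybrid, which favours genes where it was high. With a minimum of 1000 in place of 300, 15 of the 40 genes remained, and the 2 medians were 1.79 and 0.939. The higher minimum was set on the same skin values and favours such genes in the same way, so it is no check on the choice.

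**Figure D3:**
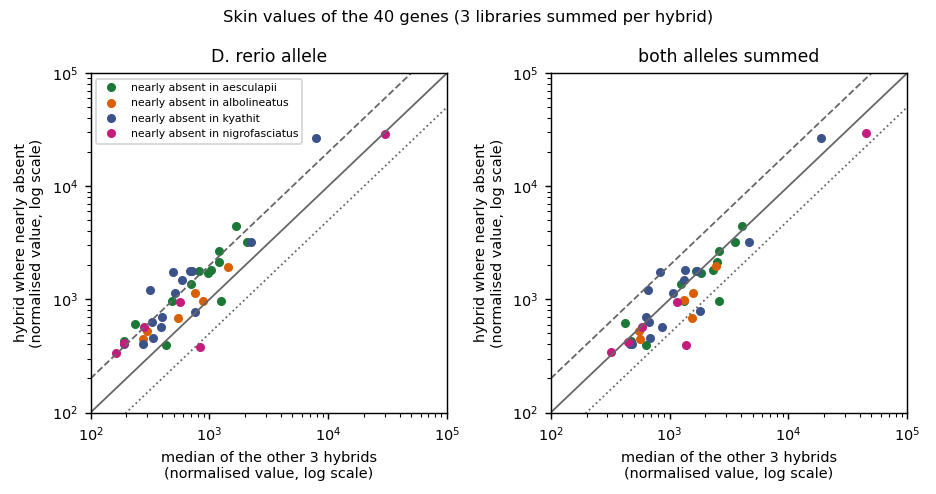
Skin value in the own hybrid (vertical axis) against the median of the other 3 hybrids (horizontal axis), both log scales, for the D. rerio allele and for the sum of both alleles, 1 point per gene. The solid line marks equality and the broken lines a factor of 2 either way; the D. rerio points sit mostly above equality, with a median ratio of 1.78, and the summed points scatter around it, with a median of 0.908.

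The sorted libraries showed whether the allele was also missing in libraries that the choice had not used. In the 9 sorted libraries of the own hybrid together, the paternal share was under 3% for 36 of 40 genes, with a median of 0. For all 40 genes it lay below the share in each other hybrid. Neither count was made over all eligible genes, so the share expected without the choice is not known. The shares in single other hybrids ran from 7.1 to 89.8%, and 27 genes kept all of them within 30 to 70%. Pooled over the other 3 hybrids, the share had a median over genes of 52.5%. In bulk samples such as these, fewer cells of a type and less RNA per cell cannot be told apart.

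The 4 genes at 3% or more were wdfy1, ppp2r5ca and trim44 in nigrofasciatus and limk2 in albolineatus. The gene wdfy1 reached 14.3% over the sorted libraries, with 19.2% in iridophore-enriched, 10.3% in melanophore-enriched and 15.6% in xanthophore-enriched cells. Its largest paternal value was 100, beside 230 for the D. rerio allele, in iridophore-enriched replicate 3. For limk2 the share was 6.94%, with 13.4% in iridophore-enriched, 2.08% in melanophore-enriched and 1.39% in xanthophore-enriched cells, and its 3 iridophore-enriched libraries held paternal values of 27, 97 and 25. The shares of ppp2r5ca and trim44 were 8.15 and 5.66%. These rested on few molecules: an estimated 37.6 in all 9 own-hybrid sorted libraries for wdfy1, 45.8 for limk2, 14.5 for ppp2r5ca and 8.49 for trim44.

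The allele ratio was tested with limma over the 36 sorted libraries, each hybrid's 9 against the 27 of the other 3, with Benjamini-Hochberg adjustment over all genes of a contrast. The 4 contrasts share libraries. Only 18 of the 40 genes held enough molecules for this test, and 22 did not. All 18 were lower in the own hybrid at an adjusted p under 0.05, whereas 9.63% of all tests gave such a call (4.88% in aesculapii, 10.1% in albolineatus, 8.72% in kyathit and 14.2% in nigrofasciatus). The median difference was -4.67 on the log2 scale, from -9.12 for tmsb4x to -2.59 for limk2. The largest after tmsb4x (SE 0.16, adjusted p = 3.11e-32) were tpm4a (-5.99 ± 0.26, adjusted p = 2.32e-18), cope (-5.44 ± 0.34, adjusted p = 1.16e-14), ostc (-5.24 ± 0.30, adjusted p = 4.2e-15) and mgst3b (-5.02 ± 0.39, adjusted p = 8.6e-12). In each of these 5 genes the paternal value of all 9 own-hybrid sorted libraries lay below that of all 27 others. How many of all tested genes did so was not counted. A pseudocount of 0.5 molecules was added to each allele. For the 9 tested genes at 0 in all 9 own-hybrid sorted libraries (clta, emc7, mgst3b, nansa, ostc, pgk1, sgta, tmem50a and tmsb4x) the size of the difference is set by it and by depth, and is no bound. Much the same holds for tpm4a, cope, rpn2, gabarapa, slc44a2 and itgav. Their highest paternal values in an own-hybrid sorted library were 7, 1, 2, 1, 2 and 4 in that order. An estimated molecule stood for a value of 12.24 or more in every sorted library. The order of the largest differences is therefore not a measured one. With a pseudocount of 2 molecules in place of 0.5 the median over the 18 genes was -2.96.

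Among the tested genes with paternal values in sorted libraries of the own hybrid, the smallest differences were those of limk2 (-2.59 ± 0.49, adjusted p = 0.000614), tspan35 (-3.66 ± 0.47, adjusted p = 2.6e-06) and itgav (-4.08 ± 0.38, adjusted p = 1.23e-08). The paternal values of limk2 in sorted albolineatus libraries ran from 0 through a median of 11 to 97, against 2 through 163 to 893 in the other hybrids. These ranges overlapped. For epcam the ratio was lower by -4.28 ± 0.38 (adjusted p = 8.15e-11). It was also the only gene with enough paternal molecules to compare the 3 sorted kinds within its hybrid. Its sorted shares in nigrofasciatus were 1.1% in iridophore-enriched, 3.30% in melanophore-enriched and 1.18% in xanthophore-enriched libraries. The limma F test among them gave 2.06 with adjusted p = 0.683 (unadjusted p = 0.143), where 1.15% of the genes tested in nigrofasciatus passed.

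The D. rerio allele was higher in the own hybrid for many of these genes. The choice favoured genes with a high D. rerio allele in skin of the own hybrid, and its part in the counts below was not tested. With limma on log2 of the value plus 20, 29 genes could be tested, of which 13 rose and 0 fell, against 1.28% of all tests called higher and 0.947% called lower. At an unadjusted p under 0.05, 23 were higher, against 7.96% of all tests, and 1, wdfy1, was lower, against 6.79%. The minimum of molecules was set on the mean over all 36 libraries, and mcm7 and gcdha met it only through kyathit, where they were high. Without these 2, 11 of 27 genes rose and the median was 0.82. The other way round, wdfy1 and elavl1b met the minimum only through the other hybrids, where they were high. Mean molecules per library were 4.16 in nigrofasciatus against 10.92 for wdfy1, and 4.34 in aesculapii against 9.39 for elavl1b. The 13 genes were tmsb4x, tspan35, nansa, clta, gcdha, mcm7, psmd4a and tpm4a of the 12 tested in kyathit, cope, insig1, rpn2 and zmp:0000001082 of the 10 in aesculapii, and gabarapa of the 4 in albolineatus. None of the 3 tested in nigrofasciatus passed. In those contrasts 1.44%, 0.842%, 2.28% and 0.569% of all genes were called higher. The median difference over the 29 genes was 0.83, a fold of 1.78, against -0.009 over all tests.

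The largest estimates were those of rpn2 (1.76 ± 0.26, adjusted p = 0.000159), mcm7 (1.61 ± 0.41, adjusted p = 0.0231, with a mean of 15.6 molecules per kyathit library and 3.38 per library of the others), insig1 (1.57 ± 0.37, adjusted p = 0.0247), zmp:0000001082 (1.55 ± 0.38, adjusted p = 0.0361) and tspan35 (1.49 ± 0.35, adjusted p = 0.0147). The sorted D. rerio values of rpn2 in aesculapii ran from 646 through a median of 1050 to 2996, against 62 through 325 to 856 in the other hybrids. All 9 aesculapii libraries of rpn2 lay above the median of the others. The same held in 7 of 9 own-hybrid libraries for mcm7, 8 of 9 for insig1, 7 of 9 for zmp:0000001082 and 8 of 9 for tspan35.

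For tmsb4x the D. rerio allele rose by 1.1 ± 0.14 in kyathit (adjusted p = 8.73e-06), with sorted values from 6399 through 10766 to 17082 against 2524 through 4380 to 9772 elsewhere, and 9 of 9 libraries lay above the median of the others. By kind it was 0.41 in iridophore-enriched (adjusted p = 0.298), 1.51 in melanophore-enriched (adjusted p = 0.0191) and 1.39 in xanthophore-enriched libraries alone (adjusted p = 0.266). For cope it rose by 1.17 ± 0.20 in aesculapii (adjusted p = 0.00109), with values from 1196 through 1525 to 2819 against 291 through 743 to 1462. Among the genes with full values above, pgk1 had 0.83 ± 0.25 (adjusted p = 0.0926, or 0.0404 with a block for the replicate number), ostc 0.78 ± 0.29 (adjusted p = 0.195), tmem50a 0.75 ± 0.29 (adjusted p = 0.233) and slc44a2 0.71 ± 0.25 (adjusted p = 0.101). For emc7 it was 0.67 ± 0.21 (adjusted p = 0.0722), for limk2 0.25 ± 0.36 (adjusted p = 0.812) and for si:ch73-158p21.3 1.12 ± 0.44 (adjusted p = 0.266). With the replicate block, gcdha had adjusted p = 0.0508.

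Of the 29 estimates 27 were above 0. The exceptions were both in nigrofasciatus, epcam at -0.63 ± 0.53 (adjusted p = 0.715) and wdfy1 at -0.81 ± 0.32 (adjusted p = 0.284), and itgav in kyathit was near 0 at 0.01 ± 0.35. The 95% interval of the D. rerio difference lay above 0 for 23 genes and held 1, a doubling of the D. rerio allele, for 24. It held 0 for 5 genes. An interval can hold 1 through its width alone, and that of havcr1, from -0.29 to 1.19, held both 0 and 1. The share of all tests whose interval held 1 was not counted. By class, the interval held 1 for all 15 tested genes listed at 0 in the own hybrid. It held 1 for 6 of the 7 tested genes with a paternal value of at most 8 in sum, and for 3 of the 7 with more. The medians were 0.83, 1.12 and 0.25 in that order, so they did not follow the order of the paternal value. Differences between the classes were not tested. The counts of 27, 23, 24 and 15 include mcm7 and gcdha. Both met the minimum of molecules only through kyathit, where they were high, and such counts without them were not made.

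The number of calls for the D. rerio allele rested on all 3 replicate numbers. When replicate 3, 4 or 5 was left out of all groups, the genes that passed numbered 2, 3 and 2, with tmsb4x among them each time, while the median of the estimates was 0.952, 1.121 and 0.895. Calls over all genes fell as well, from 207 to between 16 and 39. In single kinds of library 8 genes passed in iridophore-enriched, 1 in melanophore-enriched and 0 in xanthophore-enriched cells, with medians of 0.828, 0.802 and 0.94. Over all tests, 425 of 23340, 1 of 11968 and 1 of 9688 were called higher in these kinds, in that order. The counts by kind are therefore not read as a difference between the kinds. Among the 15 genes that met the minimum of 1000, 6 rose and the median was 0.783. That minimum was set on skin values too, so it does not free the count from the choice.

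For the value summed over both alleles, few genes passed. In the same libraries and with the same test, 1 of 29 genes fell and 0 rose, against 1.9% of all tests called lower and 2.65% called higher. At an unadjusted p under 0.05, 7 of 29 were lower, against 8.21% of all tests, and 3 were higher, against 10.4%. The 3 include mcm7, which met the minimum of molecules only through kyathit, where it was high. Counts for the sum without mcm7 and gcdha were not made. The median difference was -0.20, a fold of 0.873, against -0.007 over all tests. The 95% interval held 0 for 19 genes and lay above -1, a halving, for 22. It held -1 for 7 genes, and the same counts over all tests were not made. For tmsb4x the summed difference was 0.02 ± 0.16 with an interval from -0.30 to 0.34, for cope -0.07 ± 0.16 with an interval from -0.39 to 0.25 and for clta -0.24 ± 0.17 with an interval from -0.60 to 0.11. These intervals lay between a fall by 1 and a rise by 1 on the log2 scale. For 7 genes the interval lay below 0. Among them were ostc (-0.72, from -1.23 to -0.22), tmem50a (-0.48, from -0.95 to -0.004), emc7 (-0.46, from -0.85 to -0.07) and gabarapa (-0.45, from -0.87 to -0.02). Their adjusted p values by limma were 0.113, 0.299, 0.141 and 0.201 in that order. The rest of the 7 were itgav, wdfy1 and epcam, given below. Above 0 lay the intervals of rpn2, mcm7 and tspan35.

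The gene that fell was itgav in kyathit, at -1.29 ± 0.31 (adjusted p = 0.00815), where 3.51% of all genes were called lower. None of its 9 kyathit sorted libraries lay above the median of the others. Leaving out any 1 replicate number ended this call (adjusted p from 0.0635 to 0.192), with estimates of -1.36, -1.19 and -1.24. Large negative estimates were also those of wdfy1 (-1.33 ± 0.37, adjusted p = 0.0716, or 0.047 with the replicate block) and epcam (-1.22 ± 0.51, adjusted p = 0.283) in nigrofasciatus. Of these, wdfy1 met the minimum of molecules only through the other hybrids, where it was high. The summed sorted values of epcam ran from 167 through 5979 to 16963 in nigrofasciatus and from 1087 through 7419 to 62379 elsewhere. As a keratinocyte marker, epcam moves with the keratinocyte content of a library, whose part in this difference was not tested. The largest positive estimates were those of mcm7 (0.91 ± 0.43, adjusted p = 0.205) and tspan35 (0.91 ± 0.39, adjusted p = 0.159) in kyathit. That of mcm7 carries no weight, since the gene met the minimum of molecules only through kyathit.

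**Figure D4:**
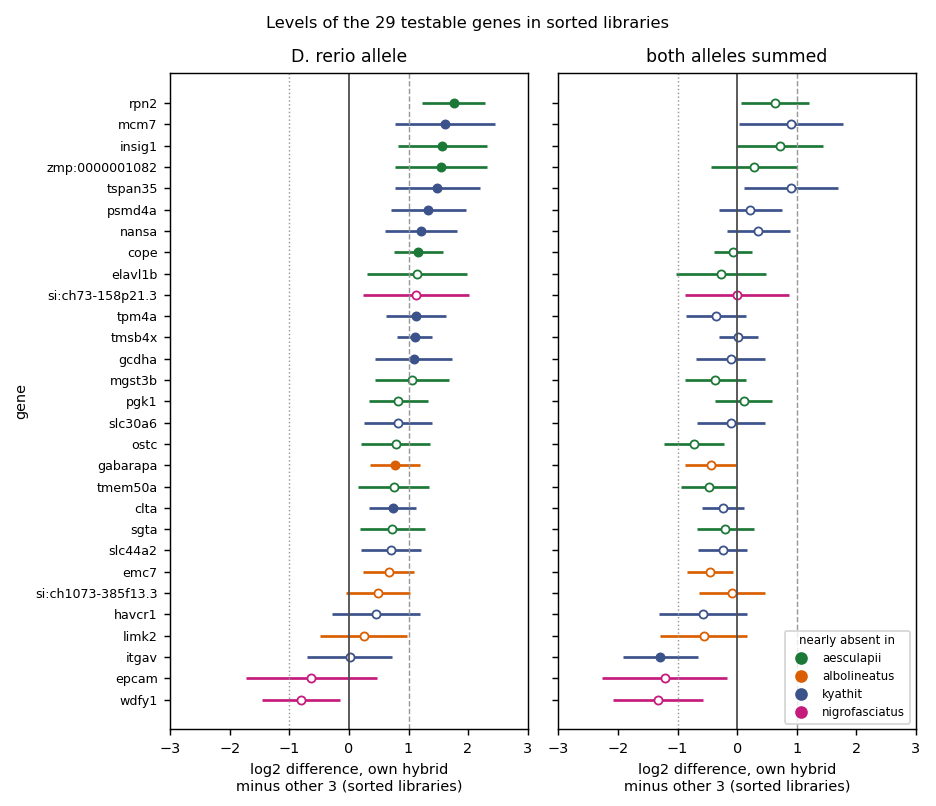
Log2 difference between the own hybrid's 9 sorted libraries and the 27 of the other hybrids (horizontal axis) for the 29 testable genes, for the D. rerio allele and for the sum of both alleles. Points are limma estimates and bars their 95% intervals; 27 of 29 D. rerio estimates are above 0 with a median of 0.83, and the summed estimates have a median of -0.20. The genes mcm7 and gcdha, which met the minimum of molecules only through kyathit, are included.

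For 11 genes no level could be tested in the sorted libraries, for want of molecules: si:ch1073-440b2.1, mkrn1, poglut1, pgam5, pik3ip1, mto1, lyar, kbtbd2, vasna, ppp2r5ca and trim44. Their sorted paternal share in the own hybrid was 0 for 7 genes, 0.25% for vasna, 1.1% for si:ch1073-440b2.1, 5.66% for trim44 and 8.15% for ppp2r5ca.

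The genes were also counted in fixed lists of symbols, with no test. By symbol, 1 of 40 was a proteasome gene (psmd4a, against 50 of 6058 eligible genes), 1 had a symbol starting with ube, usp, trim, rnf or fbxo (trim44, 84 eligible; the ligase gene mkrn1 and the adaptor gene kbtbd2 are outside this list) and 2 were solute carriers (slc44a2 and slc30a6, 90 eligible). None was a ribosomal protein (83 eligible), translation factor (57), respiratory chain (81), splicing factor (47), keratin or claudin (27), collagen (25), immune (92), small GTPase (68), zinc finger (41) or histone gene (8). None of the 15 eligible pigment cell markers was a member. Each of these lists held at most 1.52% of the eligible genes, so a count of 0 among 40 is not read as a result. No list was made for the secretory pathway, which forms a group above. Clone-based symbols made up 10% of the members and 8.17% of the eligible genes.

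A copy of the same name with the other letter, a and b, as zebrafish duplicates are often named, was in the tables for 11 of the 40 genes, or 27.5%, and for 26.5% of eligible genes. In skin of the own hybrid, the paternal allele of all 11 copies was present. Such presence was common: over all eligible genes and hybrids, the share was 3% or more in 24065 cases and under 3% in 167. In kyathit skin cltb had a paternal share of 43.6% and psmd4b of 36.9%, in albolineatus gabarapb had 52.1%, in aesculapii sgtb had 60.5% and elavl1a 84.8%, and in nigrofasciatus vasnb had 57.0%. The lowest among the 11 was mgst3a at 12.9% in aesculapii, which held 237 for the D. rerio and 35 for the paternal allele. In the other hybrids mgst3a was at 0.6% in albolineatus, 48.5% in kyathit and 17.6% in nigrofasciatus. In kyathit skin tpm4b had 83.2%, with 110 for the D. rerio and 544 for the paternal allele. Its share was 45.5% in aesculapii, 38.8% in albolineatus and 32.8% in nigrofasciatus. The share of elavl1a was also high in the other hybrids, at 82.6% in albolineatus, 88.6% in kyathit and 91.5% in nigrofasciatus. Near-identical copies can share reads, so values of such pairs are uncertain in size.

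Many of the 40 genes lay next to each other in the tables. The order of the rows is not stated. Mitochondrially encoded genes stand at the end and globin genes are adjacent, but positions were not checked against an annotation. This pattern was noticed after the values had been seen. Among eligible rows, 19 of 40 members (47.5%) had a directly adjacent gene that was also under 3% in the same hybrid. For eligible genes at 3% or more in a hybrid, 268 of 24065 (1.11%) had one, and for all eligible genes under 3% in a hybrid, members included, it was 51 of 167 (30.5%). Another member with the same own hybrid stood within 5 eligible rows for 17 of 40 genes, and a member with a different own hybrid for 0. No such counts were made over all eligible genes. Members are sparse among the eligible rows, so the 0 by itself is not read as a result.

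Counted as unbroken stretches of eligible rows under 3% in the own hybrid, the members fell into 32 runs, of which 21 held 1 gene, 7 held 2 and 4 held 3. The runs of 3 were slc44a2, gcdha and acp5a in kyathit, sgta, elavl1b and rpn2 in aesculapii, cfap36, slc30a6 and mpc1 in kyathit, and rsrp1, mgst3b and tmem50a in aesculapii. Pairs were nansa with clta, lyar with mcm7 and kbtbd2 with mto1 in kyathit, mkrn1 with rergla and cox7b with pgk1 in aesculapii, limk2 with pik3ip1 in albolineatus and si:ch73-158p21.3 with zgc:123107 in nigrofasciatus. Genes of these runs that are no members had missed the window in another hybrid. For instance, rsrp1 was at 0 in aesculapii and 71.8% in albolineatus, and cfap36 was at 0 in aesculapii as well as kyathit.

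Around the runs most genes had paternal reads in the same hybrid. The exceptions within 5 eligible rows were 1 gene each beside slc30a6, lyar, mcm7, si:ch1073-440b2.1, poglut1, si:ch1073-385f13.3 and trim44, under 3% and outside the member's own run. The median share of the 10 eligible rows around a member was 46.6% in its own hybrid, as the median over members. In the other 3 hybrids the genes of the aesculapii run of sgta, elavl1b and rpn2 had paternal shares of 40.6 to 66.9%. All 3 are members, so the rule had kept these shares within its window. The genes of the runs of 3 that are no members were not held to it. In aesculapii, albolineatus and nigrofasciatus, acp5a was at 7.3, 5.4 and 36.1%, cfap36 at 0.0, 4.1 and 52.0% and mpc1 at 34.9, 53.1 and 12.4%. In albolineatus, kyathit and nigrofasciatus, rsrp1 was at 71.8, 63.3 and 69.0%. What the genes of a run have in common was not tested.

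**Figure D5:**
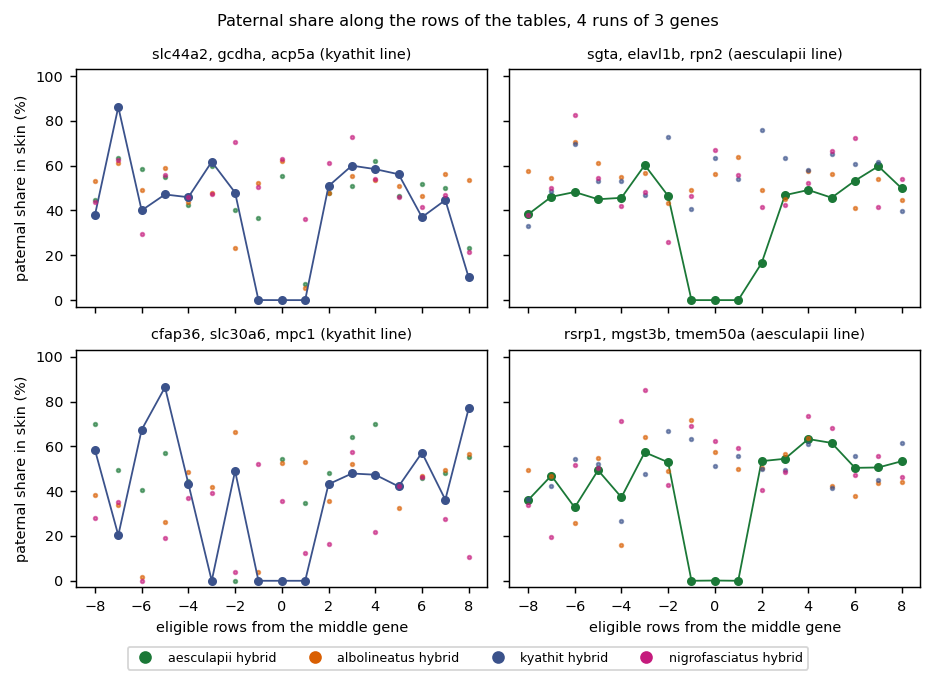
Paternal share in skin (vertical axis, percent) along the eligible rows of the tables (horizontal axis, rows from the middle gene) for the 4 runs of 3 genes. The joined large points are the own hybrid and the small points the other 3; the share of the own hybrid is near 0 over the 3 genes and mostly between 30 and 70% on either side.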

How the data were processed

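Polyadenylated RNA of 48 libraries had been made into paired-end libraries with a SMART-seq2 kit and Nextera preparation, per the labels' protocols. There was a deposited table for each allele, and its unit is named a score, because the authors had scaled the read counts of every allele column by a size factor before rounding them. The submitters' processing notes name GRCz11, featureCounts and DESeq2 1.44.0 without their roles, and the sources used here name neither the aligner nor the rule for assigning reads to an allele. No genome or annotation was used, so no sequence or position is given.

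The members, lists and tests were chosen with earlier results of these data known. Molecules per library were estimated by setting the spread of the allele ratio among replicates equal to counting error. Fits used limma 3.58.1 in R 4.3.3 (trend and robust, precision weights from a lowess with span 0.3), a mean per group over 36 sorted libraries, two-sided tests and Benjamini-Hochberg adjustment per contrast. The allele ratio was log2 of molecules, paternal over D. rerio, with 0.5 added to each, centred per library and left out under 3 molecules. Genes were tested with a mean of 5 or more molecules per library, for the ratio in the own 9 and the other 27 libraries alike and with a value in every group, and for the F test with 10 or more of each allele. The pseudocounts, weights and minimum numbers were set with the files in view, and the fits were tested on simulated data. Library depth limits the precision, and no counting interval is given because read numbers are unknown.

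Values in every library are given for the 10 genes with the largest summed skin value, topped up to 2 per hybrid. For each test the 5 largest estimates and those against the main direction are named. The 3 genes nearest the threshold on either side are named too. Numbers of replicates pair the libraries by the labels, which give the same number as a batch. Over 987 genes, deviations from group means had a median correlation of 0.07 between the 198 same-number pairs, 87 of them over 0.1, and -0.026 between others. No libraries were identical.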

Additional observations from a re-analysis of the deposited data

How the results depend on the processing

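The number of genes chosen depended on the rule: 70 with a window of 20 to 80%, 12 with 40 to 60%, 66 with a minimum of 100 and 15 with a minimum of 1000. It was 32 under 1% and 55 under 5%, and 31 to 37 without 1 replicate number, of which 25 to 28 were among the 40.

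The lower allele ratio was called for 12 to 25 genes over the alternatives, with medians from -5.13 to -2.96. All testable genes were called, except 1 of 26 in iridophore-enriched and 1 of 18 in xanthophore-enriched libraries alone. For the D. rerio allele, 2 to 3 genes passed without 1 replicate number, 8 in iridophore-enriched, 1 in melanophore-enriched and 0 in xanthophore-enriched libraries alone. In the 3 kinds alone, 425 of 23340, 1 of 11968 and 1 of 9688 of all tests were called higher. The medians of the members stayed between 0.711 and 1.121. For the summed level, the number that fell was 2 without weights, with the replicate block, without the aesculapii xanthophore replicate 5 (chosen after seeing the data, as the library with the largest summed value), with a pseudocount of 100 and in iridophore-enriched libraries alone. It was 0 without any 1 replicate number (0 to 0) and in melanophore-enriched or xanthophore-enriched libraries alone. In iridophore-enriched libraries alone 1 gene rose, where 667 of 23340 of all tests were called lower and 678 higher. Medians ran from -0.368 to -0.093. The cause of these moves was not tested, apart from the fewer libraries that the smaller fits hold. No called difference changed sign.

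With the replicate block, 18 genes were called for the ratio, 13 for the D. rerio allele (12 of them shared) and 2 for the summed level, and it changed no other call than those of gcdha, pgk1 and wdfy1. Low depth in the sorted libraries left 22 genes untested for the ratio and 11 for the levels, and of the alternative values of called D. rerio differences, 88 passed and 73 did not.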
